A study of Mus musculus with 4 samples.

Results

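The spermatocyte transcription regulators described here are 10 genes, Mybl1, Tcfl5, Rfx2, Crem, Tbpl1, Pou5f2, Sox30, Brdt, Taf7l and Gtf2a1l. They were taken by gene name from a deposited table of 53465 genes, where each name had a single row. RNA was sequenced from whole testes at postnatal day 18 in 2 groups of 2 libraries each. The groups were Sympk cKO, in which Sympk was conditionally deleted with Stra8-Cre, a recombinase that acts in male germ cells from before meiosis, and wild type. Sympk encodes symplekin, a scaffold of the machinery that forms the 3′ ends of mRNAs. All mice were on a mixed C57BL/6-ICR background. The labels give neither the number of animals behind a library nor the floxed or Cre alleles, if any, that the wild-type mice carried. Nothing says that the libraries came from separate animals, so each p-value speaks to the spread between the 4 libraries alone, and that spread may be technical.

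Male germ cells use a transcription apparatus of their own during meiosis. Some of its parts are germ cell versions of general factors: TBPL1 is a relative of the TATA-binding protein TBP that does not bind the TATA box, TAF7L is a relative of the TFIID subunit TAF7, and GTF2A1L is a relative of the large subunit of TFIIA. Others bind particular DNA sequences. MYBL1 (A-MYB) activates the pachytene programme, including piRNA precursors and genes of the piRNA machinery. TCFL5 is a basic helix-loop-helix factor of spermatocytes, RFX2 binds the X box of cilium and flagellum genes, and CREM and SOX30 are needed for the expression of many genes after meiosis. POU5F2 is a POU-domain factor of male germ cells, and BRDT is the testis member of the BET family, whose bromodomains read acetylated histones.

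Library totals ran from 32730868 to 40994172 counts in Sympk cKO and from 37764044 to 41584389 counts in wild type, and 1 TMM-scaled CPM, the unit of all CPM values here, stood for 36.5 to 42.8 counts in Sympk cKO and 35.6 to 37.9 counts in wild type. Mitochondrially encoded genes took 8.81% to 10.2% of the counts in Sympk cKO and 4.01% to 4.93% in wild type. Sympk itself was at 171.4 and 173.1 CPM in Sympk cKO, against 225.1 and 191.9 CPM in wild type. The fitted log2 fold change, -0.28, missed the threshold by edgeR's quasi-likelihood test (adjusted p = 0.132). Whole-gene counts from whole testes include cells without the recombinase and do not single out deleted exons, so this is a weak check of the labels.

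In the Sympk cKO testes, 9 of the 10 regulators were lower than in wild type and 0 were higher, while Taf7l did not pass the test. Over all 21822 genes tested, 34.3% were called lower and 29.2% higher, 63.4% in all (edgeR's quasi-likelihood test, Benjamini-Hochberg adjusted p under 0.05). With libraries scaled by their totals alone, which put the median of all genes at 0.20, 6423 genes were called lower and 7651 higher, against 7477 lower and 6368 higher with TMM. Both Sympk cKO libraries lay below both wild-type libraries for 10 of 10 regulators, which was also true of 42.9% of all tested genes. The regulators had a median log2 fold change of -3.92, beside -0.02 for all tested genes, and ranged from -10.69 for Pou5f2 to -0.39 for Taf7l. A called fold change of -4 or below was found for 5 of them (Pou5f2, Gtf2a1l, Rfx2, Brdt and Tcfl5) and for 9.23% of all tested genes. Together the 10 genes made up 239.1 and 299.7 CPM in Sympk cKO, against 2170 and 2120 CPM in wild type. In bulk testis RNA, fewer cells of a type and less RNA per cell cannot be told apart.

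**Figure D1:**
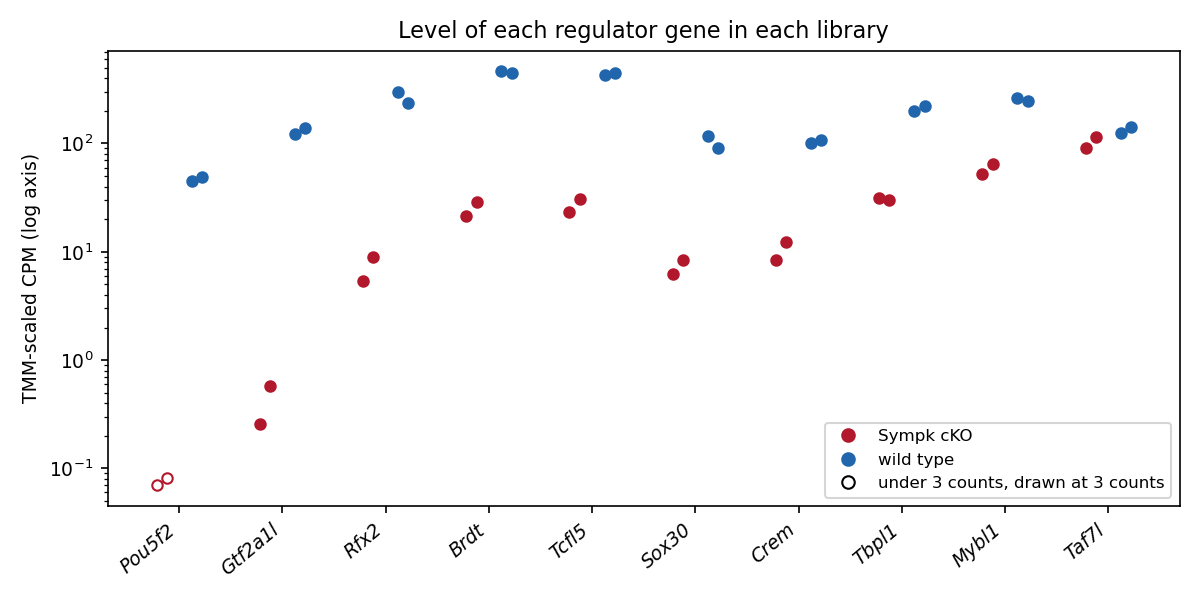
Level of each regulator gene in each library, in TMM-scaled CPM on a log axis, with Sympk cKO libraries in red left of wild-type libraries in blue. Open circles are libraries with under 3 counts, drawn at the TMM-scaled CPM of 3 counts. The groups are far apart for every gene but Taf7l, whose 4 libraries lie between 90.3 and 142.5 CPM.

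Among the germ cell versions of general factors, the mean levels in Sympk cKO ranged from 0.318% to 76.5% of those in wild type. Gtf2a1l (ENSMUSG00000024154, plus strand of chromosome 17 from 88668660 to 88715152, GRCm38) was at 0.257 and 0.575 CPM in Sympk cKO, against 122.6 and 138.8 CPM in wild type. Only 32 reads were counted for it in the Sympk cKO libraries together, against 9578 in wild type. It fell by 8.32 on the log2 scale (SE 0.332, adjusted p = 1.53e-05, edgeR's quasi-likelihood test). Without Sympk cKO replicate 2 the log2 fold change was -8.97. Tbpl1 (ENSMUSG00000071359, minus strand of chromosome 10 from 22703879 to 22731938) had 31.7 and 30.1 CPM in Sympk cKO, against 200.3 and 221.1 CPM in wild type. The 2 Sympk cKO libraries were close to each other and far under wild type, with a log2 fold change of -2.77 (SE 0.140, adjusted p = 2.88e-05, edgeR's quasi-likelihood test). Its exons overlap those of Slc2a12 on the other strand over 407 bp, and Slc2a12 rose (log2 fold change 1.45), so reads in that stretch could have been counted for either gene.

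Taf7l, the X-linked relative of Taf7 (ENSMUSG00000009596, minus strand of chromosome X from 134460118 to 134476490), stood apart from the other 9 in its fold change. Its level was 90.3 and 115.1 CPM in Sympk cKO, against 125.8 and 142.5 CPM in wild type. All 4 libraries lay near each other, with group means of 102.7 CPM in Sympk cKO and 134.1 CPM in wild type. The nearest libraries of the groups, at 115.1 and 125.8 CPM, were closer together than the Sympk cKO libraries were. The log2 fold change of -0.39 had a 95% interval from -0.79 to 0.02 and did not pass (adjusted p = 0.0839, edgeR's quasi-likelihood test). At its mean, Sympk cKO kept 76.5% of the wild-type level of Taf7l, 14.6% of Tbpl1 and 0.318% of Gtf2a1l. The promoter windows of Gtf2a1l and Taf7l, which had the largest and the smallest change among these 3, are given here with short motifs in capitals. The windows are chr17:88668410-88668709 on the plus strand and chrX:134476441-134476740 on the minus strand (RefSeq, GRCm38.p6), each from 250 bases before the start of transcription to 50 after it.
Gtf2a1l: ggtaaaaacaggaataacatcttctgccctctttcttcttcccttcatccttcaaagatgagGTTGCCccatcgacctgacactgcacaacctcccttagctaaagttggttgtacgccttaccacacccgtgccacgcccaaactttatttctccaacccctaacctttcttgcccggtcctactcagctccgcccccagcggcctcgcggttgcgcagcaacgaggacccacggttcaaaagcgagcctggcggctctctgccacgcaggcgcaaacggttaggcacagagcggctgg
Taf7l: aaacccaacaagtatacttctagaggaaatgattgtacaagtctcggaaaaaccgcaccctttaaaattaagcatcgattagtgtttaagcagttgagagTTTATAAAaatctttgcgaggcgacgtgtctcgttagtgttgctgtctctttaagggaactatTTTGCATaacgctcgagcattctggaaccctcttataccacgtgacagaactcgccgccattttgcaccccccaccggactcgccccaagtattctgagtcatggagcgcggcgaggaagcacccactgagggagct
The capitals in Gtf2a1l mark GTTGCC, a part of the RFX X box. In Taf7l they mark overlapping matches to the TATA box letters TATAAA on both strands, at 150 to 143 bases before the start, and the reverse complement of ATGCAAA, part of the POU octamer, at 87 to 81 bases before it.

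The sequence-specific activators known from the pachytene stage, Mybl1 and Tcfl5, differed in how much of their RNA was left. Mybl1 (ENSMUSG00000025912, minus strand of chromosome 1 from 9667415 to 9700209) was at 52.0 and 64.3 CPM in Sympk cKO, against 263.7 and 245.2 CPM in wild type. It had the smallest of the 9 called falls, with a log2 fold change of -2.13 (SE 0.160, adjusted p = 1.26e-04, edgeR's quasi-likelihood test). Tcfl5 (ENSMUSG00000038932, minus strand of chromosome 2 from 180621956 to 180642708) was at 23.4 and 30.9 CPM in Sympk cKO, against 432.2 and 445.9 CPM in wild type. The wild-type libraries were within a few percent of each other and the Sympk cKO libraries far below them, a log2 fold change of -4.01 (SE 0.192, adjusted p = 2.48e-05). The 95% intervals of the 2 fold changes, -2.52 to -1.74 for Mybl1 and -4.48 to -3.55 for Tcfl5, did not overlap. Tcfl5 shares 234 exonic bases with Col9a3, a collagen gene on the other strand that rose (log2 fold change 2.18), so its Sympk cKO counts may hold reads of Col9a3.

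Rfx2 and Pou5f2 were among the 3 regulators with the deepest falls. Rfx2 (ENSMUSG00000024206, minus strand of chromosome 17 from 56775897 to 56831008) was at 5.37 and 9.03 CPM in Sympk cKO, against 299.6 and 235.0 CPM in wild type. Libraries of 1 genotype differed from one another, but the lower wild-type value was 26.0 times the higher Sympk cKO value. The log2 fold change was -5.22 (SE 0.307, adjusted p = 4.86e-05, edgeR's quasi-likelihood test). Pou5f2 (ENSMUSG00000093668, plus strand of chromosome 13 from 78024902 to 78026295) had 2 counts and 0 counts in Sympk cKO, against 1689 and 1757 counts in wild type. The wild-type to Sympk cKO ratio of the summed counts, scaled by the TMM library sizes, was 1862, with an exact 95% counting interval from 515.1 to 15383, which covers counting error only. The fitted log2 fold change was -10.69 (SE 0.431, adjusted p = 1.54e-05). It moved to -13.75 without Sympk cKO replicate 1, which held the only 2 reads, and to -9.87 without Sympk cKO replicate 2. Pou5f2 has 1 annotated transcript and lies within the span of Fam172a on the same strand, sharing no exonic base with it. Fam172a rose (log2 fold change 0.81) and had 1146 and 723 counts in Sympk cKO, against 526 and 452 counts in wild type.

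Crem and Sox30, the regulators known for activating genes after meiosis, fell to under 10% of the wild-type mean. Crem (ENSMUSG00000063889, minus strand of chromosome 18 from 3266048 to 3337748) was at 8.47 and 12.3 CPM in Sympk cKO, against 101.9 and 107.7 CPM in wild type, a log2 fold change of -3.34 (SE 0.215, adjusted p = 6.82e-05, edgeR's quasi-likelihood test). GENCODE M21 lists 39 Crem transcripts, among them activators and repressors of cAMP-responsive genes, and the counts do not tell them apart. Sox30 (ENSMUSG00000040489, plus strand of chromosome 11 from 45980310 to 46017994) was at 6.21 and 8.49 CPM in Sympk cKO, against 116.7 and 90.4 CPM in wild type. Neither group came near the other, and the log2 fold change was -3.82 (SE 0.232, adjusted p = 5.44e-05). Sympk cKO kept 9.91% of the wild-type mean for Crem and 7.10% for Sox30.

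Brdt, the chromatin reader of the group (ENSMUSG00000029279, plus strand of chromosome 5 from 107331159 to 107387058), was at 21.4 and 29.0 CPM in Sympk cKO, against 462.5 and 444.0 CPM in wild type. The log2 fold change was -4.17 (SE 0.202, adjusted p = 2.57e-05, edgeR's quasi-likelihood test), and it had a 95% interval from -4.66 to -3.68, which covers the value of Tcfl5. Brdt and Tcfl5 had the most counts of the regulators in wild type, 33304 and 32222 over both libraries.

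**Figure D2:**
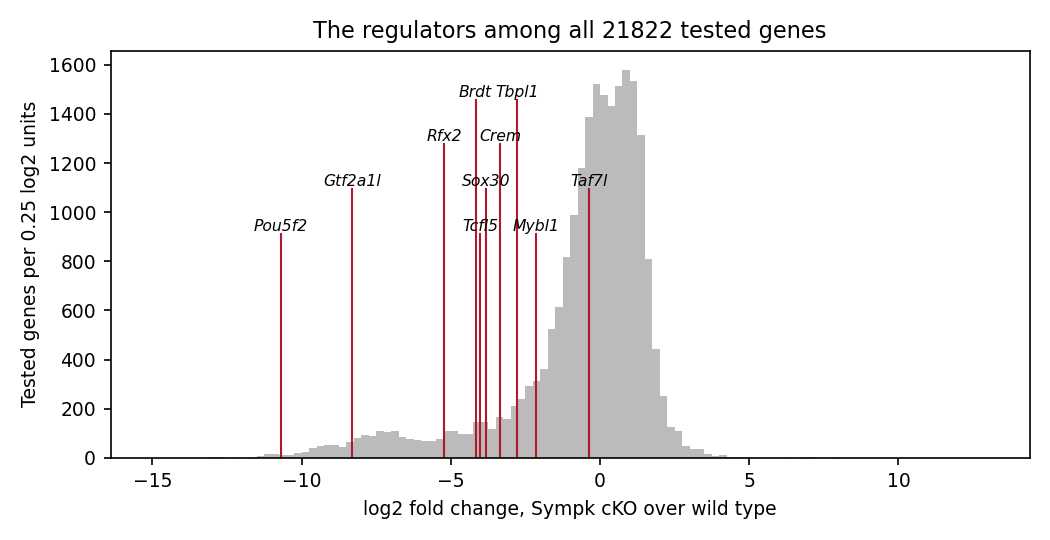
Histogram of log2 fold changes (Sympk cKO over wild type) of all 21822 tested genes, with the regulators as red lines of arbitrary height. Pou5f2 and Gtf2a1l lie in the far left tail, at -10.69 and -8.32, and Taf7l lies in the main body, at -0.39.

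Within Sympk cKO, most regulators shared an order of libraries. Sympk cKO replicate 2 was higher than replicate 1 for 8 of 10 regulators, the exceptions being Tbpl1 and Pou5f2, and the summed level of the 10 was 1.25 times as high. The share of all tested genes with this order was not computed, so the order is not shown to be particular to the regulators. The summed level of 12 markers of leptotene and zygotene spermatocytes was 473.9 CPM in Sympk cKO replicate 2 and 329.7 CPM in replicate 1, a ratio of 1.44. That of 15 Sertoli cell markers was 6949 CPM in Sympk cKO replicate 2 and 7854 CPM in replicate 1. The part of these markers in the order was not tested. In wild type, replicate 2 was higher than replicate 1 for 6 of 10 regulators.

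Levels were compared between genes on the FPKM scale, which divides by gene length. In the deposited FPKM values for Sympk cKO, Taf7l had the highest level, 44.6 ± 9.66 FPKM, followed by Mybl1 at 9.69 ± 1.90 FPKM (SD, n = 2). Tbpl1 and Tcfl5 came next and overlapped each other, then Brdt, then Sox30 and Rfx2, which also overlapped, then Crem, Gtf2a1l and Pou5f2. In wild type, Tcfl5 was the highest at 92.5 ± 4.23 FPKM, above Rfx2 at 73.7 ± 10.9 FPKM. Brdt, Gtf2a1l and Taf7l followed with each neighbouring pair overlapping, then Tbpl1 and Mybl1, then Sox30 and Pou5f2, which overlapped, and last Crem at 4.30 ± 0.271 FPKM. Taf7l thus ranked 1 of 10 in Sympk cKO and 5 of 10 in wild type, and Rfx2 ranked 7 in Sympk cKO and 2 in wild type.

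The lengths behind the deposited FPKM values matter for this order. They equalled the merged exon length in GENCODE M21 for 2 of the 10 genes, Sox30 and Pou5f2. For Crem the deposited length was 22587 bp, against 5895 bp of merged exons, and for Rfx2 3353 bp, against 7311 bp. Over merged exons, Crem averaged 1.91 ± 0.583 FPKM in Sympk cKO and 16.5 ± 1.04 FPKM in wild type, and was still the lowest regulator in wild type. Rfx2 averaged 1.07 ± 0.433 FPKM in Sympk cKO and 33.8 ± 4.99 FPKM in wild type on this scale, which ranked it 8 of 10 in Sympk cKO and 7 of 10 in wild type, where it overlapped Sox30. Tcfl5 and Taf7l stayed the highest in their groups, at 128.5 ± 5.88 FPKM for Tcfl5 in wild type and 49.6 ± 10.7 FPKM for Taf7l in Sympk cKO. Fold changes between the genotypes do not depend on these lengths.

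Next, 6 of the regulators were set beside a broadly expressed relative. The ratio of counts between 2 genes of the same library does not depend on how libraries are scaled, but it shows only unequal change. Rfx2 reads were 0.281 and 0.473 times those of Rfx3 in Sympk cKO, against 16.6 and 16.9 times in wild type, and Rfx3 itself did not pass the test (log2 fold change 0.26, adjusted p = 0.267, edgeR's quasi-likelihood test). Crem to Creb1 was 0.109 and 0.154 in Sympk cKO, against 1.73 and 1.84 in wild type. Creb1, a sister gene of Crem, rose by 0.42 (adjusted p = 0.0267), a call lost when Sympk cKO replicate 1 (adjusted p = 0.128) or replicate 2 (adjusted p = 0.15) was left out and with a replicate block (adjusted p = 0.0685). Mybl1 to Mybl2 was 2.69 and 3.02 in Sympk cKO, against 12.03 and 12.11 in wild type, with Mybl2 at 20.3 ± 1.39 CPM in Sympk cKO and 21.1 ± 1.18 CPM in wild type (SD, n = 2 each).

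The 3 relatives in the preinitiation complex gave 3 different pictures. Gtf2a1l reads were 0.00265 and 0.00589 times those of Gtf2a1 in Sympk cKO, against 0.864 and 0.945 times in wild type. Gtf2a1 was at 97.0 and 97.6 CPM in Sympk cKO, against 141.8 and 146.9 CPM in wild type (log2 fold change -0.57, adjusted p = 7.80e-03, edgeR's quasi-likelihood test). Tbp, which is itself abundant in male germ cells, fell with its relative: Tbpl1 to Tbp was 0.873 and 0.837 in Sympk cKO, against 1.18 and 1.22 in wild type. Tbp was at 36.1 ± 0.257 CPM in Sympk cKO and 175.5 ± 8.49 CPM in wild type, a log2 fold change of -2.28 (SE 0.132, adjusted p = 4.57e-05). Taf7l to Taf7 was 1.39 and 1.82 in Sympk cKO, against 1.45 and 1.49 in wild type, so that the wild-type ratios lay between those of Sympk cKO. Taf7 had a log2 fold change of -0.51 (adjusted p = 0.0159). The calls of Gtf2a1 and Taf7 were lost without Sympk cKO replicate 1 (adjusted p = 0.0671 and 0.0911) or replicate 2 (adjusted p = 0.0653 and 0.114).

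**Figure D3:**
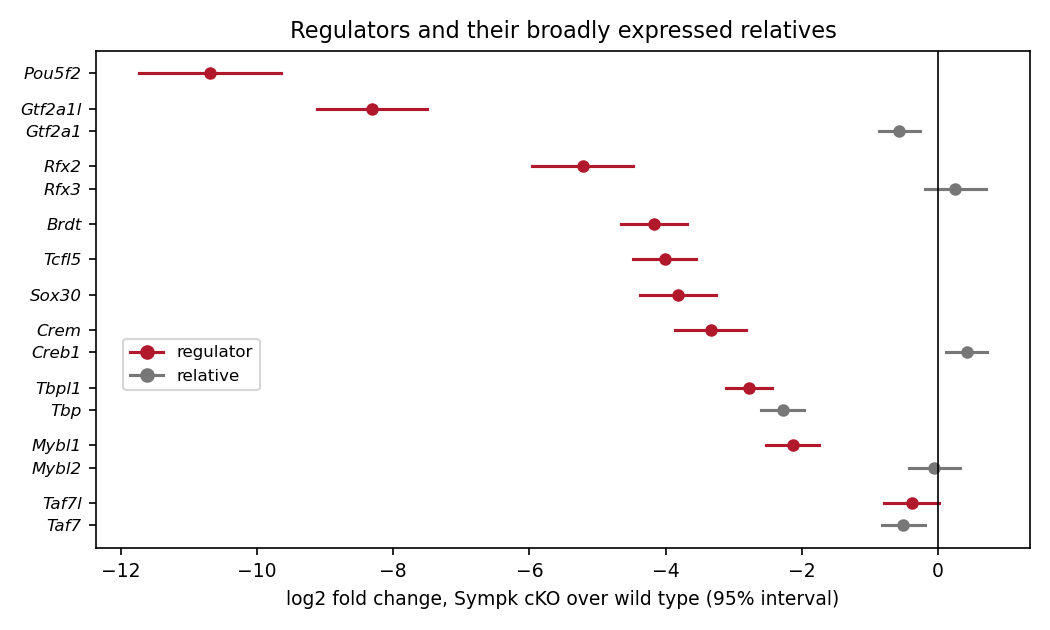
Log2 fold change (Sympk cKO over wild type) of each regulator in red, with its relative under it in grey where one was compared, and 95% intervals as lines. Tbp, at -2.28, has the largest change among the relatives, and the interval of Taf7l reaches from -0.79 to 0.02.

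Other subunits of TFIID and TFIIA were lower more often than higher, by less than most regulators. Of 20 tested genes for TBP, its partners and the subunits of TFIID and TFIIA, 14 fell and 1 rose. Over all tested genes, 34.3% were called lower and 29.2% higher. The median log2 fold change was -0.85 for the 20 genes, beside -0.02 for all tested genes. Taf9 had the largest fall, at 19.1 ± 3.25 CPM in Sympk cKO and 349.9 ± 25.5 CPM in wild type (log2 fold change -4.20), but its span lies within that of Ak6 on the same strand, and Ak6 also fell (log2 fold change -2.75), so reads may have been split between them. Btaf1, an ATPase that removes TBP from DNA, fell by 1.80 (SE 0.146). The gene that rose was Taf1, the largest TFIID subunit, with a log2 fold change of 0.49 (adjusted p = 0.0157, edgeR's quasi-likelihood test), a call lost when Sympk cKO replicate 1 (adjusted p = 0.0894) or replicate 2 (adjusted p = 0.0885) was left out.

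Families of the sequence-specific factors were split, in a background where 34.3% of all tested genes were called lower and 29.2% higher. Among 9 tested RFX genes and partners, 5 fell and 0 rose, with a median of -0.64. Rfx4, at 0.601 ± 0.388 CPM in Sympk cKO and 89.0 ± 8.49 CPM in wild type (SD, n = 2 each), and Rfx8, at 0.816 ± 0.163 CPM in Sympk cKO and 55.9 ± 7.05 CPM in wild type, fell by 7.23 and 6.10 on the log2 scale, more than Rfx2. The Rfx4 value became -8.07 without Sympk cKO replicate 2. Foxj1, a master regulator of motile cilia, fell by 1.94. Of 7 genes of the MYB family and the MuvB core, which partners MYB proteins in dividing cells, 4 fell, with a median of -0.65, and Lin9, at 28.3 ± 0.390 CPM in Sympk cKO and 95.1 ± 1.70 CPM in wild type, had the largest called fall (log2 fold change -1.75). Among 7 genes of the CREB family and its coactivators, 2 fell and 3 rose: Creb3l4 fell by 1.64 and Atf1 by 1.14, while Crtc3, a coactivator of CREB, rose by 1.31 and Crtc1 by 0.95. Of 19 tested SOX and POU genes, 4 fell and 9 rose, with a median of 0.62. Pou6f1 fell by 2.93. Pou2f2 had a log2 fold change of -2.25 (adjusted p = 0.0408, edgeR's quasi-likelihood test), which was -3.73 without Sympk cKO replicate 2. Its call was lost without Sympk cKO replicate 1 (-1.52, adjusted p = 0.0551) or wild-type replicate 2 (-1.34, adjusted p = 0.235). Sox9, which defines Sertoli cells, rose by 1.69.

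Other regulators known from male germ cells covered both directions. Of 29 tested, 19 fell and 4 rose, beside 34.3% lower and 29.2% higher over all tested genes, and their median log2 fold change was -1.26. Among those that averaged at least 1 CPM, the largest falls were those of Kctd19, Ybx2 and Hsf5. Kctd19 was at 7.07 ± 3.47 CPM in Sympk cKO and 503.5 ± 29.7 CPM in wild type (SD, n = 2 each). Its log2 fold change was -6.16, and -6.76 without Sympk cKO replicate 2. Ybx2 was at 15.99 and 28.0 CPM in Sympk cKO, against 1603 and 1419 CPM in wild type, and the heat shock factor gene Hsf5 was at 7.17 ± 2.25 CPM in Sympk cKO and 447.2 ± 10.7 CPM in wild type. Kctd19 encodes a meiotic partner of ZFP541, and Ybx2 an RNA- and DNA-binding protein that stores germ cell mRNAs. Egr4 rose by 2.08 on the log2 scale. Etv5, a factor of spermatogonial stem cells, rose as well, at 103.5 ± 12.9 CPM in Sympk cKO and 38.7 ± 0.841 CPM in wild type.

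Genes linked to the regulators were then counted, beside 34.3% of all tested genes called lower and 29.2% higher. All 17 tested piRNA pathway genes fell, many of which are known to be bound by MYBL1 at their promoters, with a median of -3.13. Tdrd6, a component of germ granules, was at 4.02 ± 1.82 CPM in Sympk cKO and 822.8 ± 228 CPM in wild type, a log2 fold change of -7.68 (SE 0.434). Piwil1, the Piwi protein of pachytene piRNAs, was at 12.6 ± 1.96 CPM in Sympk cKO and 1421 ± 174 CPM in wild type. Of 20 cilium and flagellum genes, a class known for RFX binding sites, 17 fell and 0 rose, with a median of -5.01. Spag17, of the axoneme's central pair, was at 1.86 ± 0.423 CPM in Sympk cKO and 483.5 ± 96.2 CPM in wild type, and Spag16 fell by 7.29. The dynein light chain gene Dnali1 had a log2 fold change of -7.19, which moved to -7.94 without Sympk cKO replicate 2 and to -6.65 without replicate 1. Of 9 genes linked to CREM, 5 were tested and 3 fell. The 4 not tested were Prm1, Prm2, Tnp1 and Tnp2, which had 0 to 8 counts in each library of both groups. Odf1, Smcp and Akap4, which fell, averaged only 2.12, 3.34 and 5.28 CPM in wild type. Camk4 and Fhl5, which encodes a coactivator of CREM, were not called. The count therefore says little about CREM target genes at this age. Akap4, a scaffold of the sperm tail, had 7 and 6 counts in Sympk cKO, a mean of 0.164 CPM, against 166 and 220 counts in wild type. Control of these genes by a regulator was not tested.

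**Figure D4:**
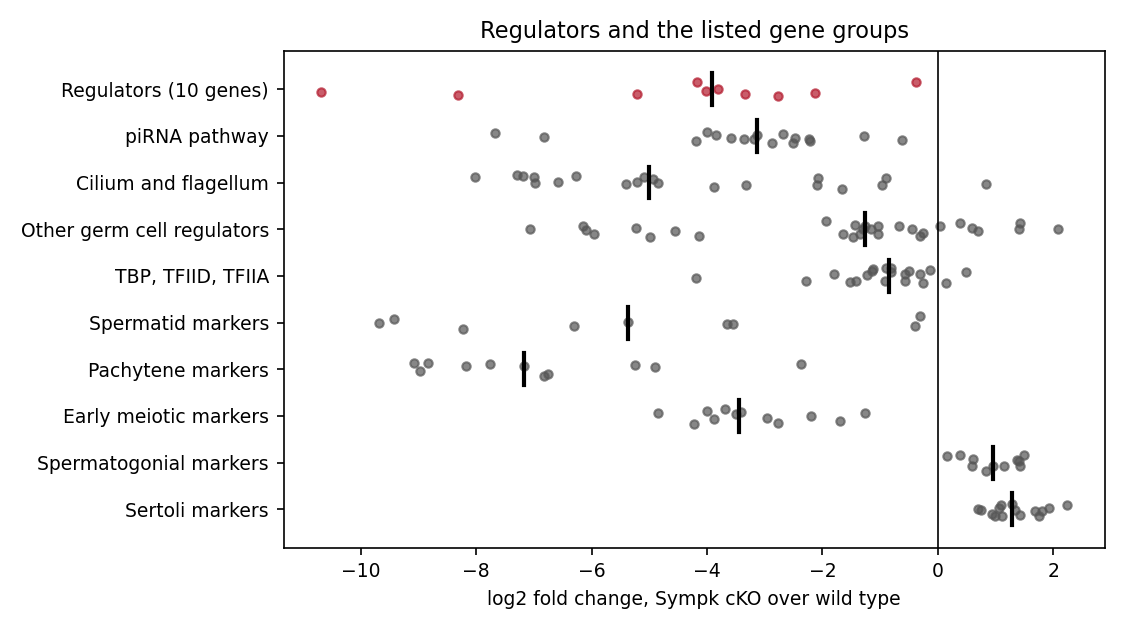
Log2 fold changes (Sympk cKO over wild type) of the tested genes in the regulator group and in 9 other lists, 1 point per gene with vertical jitter, and a black bar at each list's median. The median of the regulators (-3.92) lies between those of the pachytene markers (-7.17) and the listed TBP, TFIID and TFIIA genes (-0.85). The median of the early meiotic markers is -3.45. Single regulators range from -10.69 to -0.39.

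Meiotic and most tested spermatid markers fell with the regulators, and spermatogonial markers did not. The background for each count below was 34.3% of all tested genes called lower and 29.2% higher. All 12 genes listed as markers of leptotene and zygotene spermatocytes were lower, with log2 fold changes from -4.84 to -1.26 and a median of -3.45. Their summed level was 329.7 to 473.9 CPM in Sympk cKO, against 4289 to 4336 CPM in wild type. Sycp2, Sycp1 and Stag3, at 1344, 739 and 634 CPM in wild type, held the largest parts of that sum, and Prdm9 fell least. Pachytene cells that express genes of this list would add to the sum, so it may not be specific to the earlier stages. Of 11 pachytene markers, 11 were lower, with a median of -7.17 and a sum of 93.4 to 128.1 CPM in Sympk cKO, against 5963 to 6035 CPM in wild type. Spermatid markers were lower in 7 of 9 tested cases, with a sum of 6.90 to 7.70 CPM in Sympk cKO, against 78.1 to 80.1 CPM in wild type. Actl7b, at 54.2 CPM, held most of the wild-type sum. The next highest, Spaca1, was at 6.66 CPM in wild type and was not called. Prm1, Prm2 and Tnp1 had too few counts to be tested, so the list says little about spermatids at this age. Spermatogonial markers were higher in 7 of 11 cases and lower in 0, with a sum of 654.7 to 711.2 CPM in Sympk cKO, against 378.9 to 408.9 CPM in wild type. Sertoli markers were higher in 14 of 15 cases, with a median of 1.29. So were 6 of 9 Leydig, 3 of 6 peritubular, 6 of 6 endothelial and 6 of 7 macrophage markers, and 0 of them were lower. These rises were counted with TMM and depend on the scale. With libraries scaled to the Sertoli markers, 543 of all 21822 tested genes were called higher, and the median of all tested genes was -1.09. No marker of these lists other than the spermatid list was at 0 counts in both libraries of a group, and Piwil1 is both a pachytene marker and a piRNA gene. The part of cell composition in the falls of the regulators was not tested.

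To place the regulators against the early meiotic markers, the libraries were also scaled to the summed counts of those 12 markers, an alternative chosen after seeing the data. The summed counts are weighted to the most abundant of these genes and may also reflect pachytene cells. On that scale 3 regulators were called lower, 2 higher and 5 in neither direction. Pou5f2, Gtf2a1l and Rfx2 were lower, with log2 fold changes of -7.38, -4.91 and -1.81. Brdt (-0.74), Tcfl5 (-0.58), Sox30 (-0.39), Crem (0.09) and Tbpl1 (0.71) did not pass. Mybl1 (1.31) and Taf7l (3.05) were higher. The median of all tested genes moved to 3.44 on this scale. Of all 21822 tested genes, 1660 were called lower and 18717 higher. Scaled to the Sertoli markers instead, 10 of 10 regulators were called lower, as were 12608 of all 21822 tested genes. Taf7l was at -1.44. The median of all tested genes was then -1.09.

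**Figure D5:**
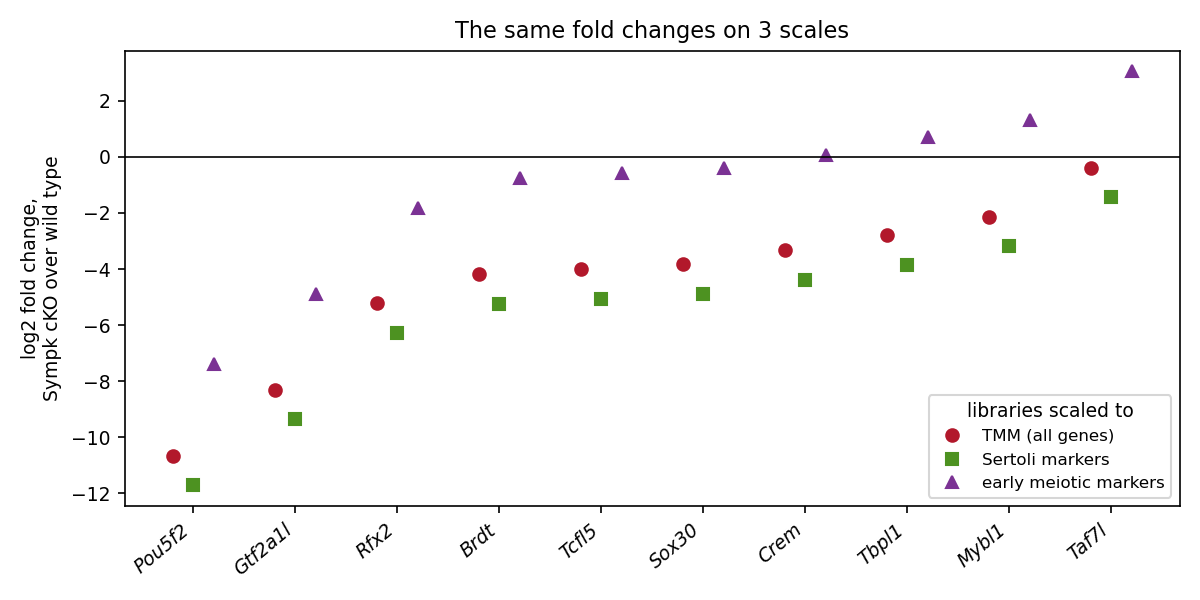
Log2 fold change (Sympk cKO over wild type) of each regulator with libraries scaled by TMM over all genes (circles), to Sertoli markers (squares) and to early meiotic markers (triangles). The order of the genes is set by TMM, and the triangles cross 0 between Sox30 (-0.39) and Crem (0.09).

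Promoter windows from RefSeq (GRCm38.p6) were matched by symbol for 8 regulators, and the windows of Mybl1 and Crem were not analysed here. The windows of Rfx2 (chr17:56830959-56831258, minus strand), Tcfl5 (chr2:180642642-180642941, minus strand) and Sox30 (chr11:45980060-45980359, plus strand) are shown because they hold the letters searched for TCFL5, RFX2 or CREM.
Rfx2: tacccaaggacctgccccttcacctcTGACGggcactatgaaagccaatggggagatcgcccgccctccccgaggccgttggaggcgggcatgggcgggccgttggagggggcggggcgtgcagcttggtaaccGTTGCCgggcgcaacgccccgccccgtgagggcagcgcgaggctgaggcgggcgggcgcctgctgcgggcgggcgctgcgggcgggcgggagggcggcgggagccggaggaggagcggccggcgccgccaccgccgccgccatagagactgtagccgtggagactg
Tcfl5: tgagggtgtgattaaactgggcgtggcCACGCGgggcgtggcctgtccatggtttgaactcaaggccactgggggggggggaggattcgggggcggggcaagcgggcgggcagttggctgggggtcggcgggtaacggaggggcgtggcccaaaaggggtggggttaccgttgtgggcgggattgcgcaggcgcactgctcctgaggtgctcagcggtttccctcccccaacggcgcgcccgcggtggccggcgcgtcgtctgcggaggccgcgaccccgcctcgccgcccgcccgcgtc
Sox30: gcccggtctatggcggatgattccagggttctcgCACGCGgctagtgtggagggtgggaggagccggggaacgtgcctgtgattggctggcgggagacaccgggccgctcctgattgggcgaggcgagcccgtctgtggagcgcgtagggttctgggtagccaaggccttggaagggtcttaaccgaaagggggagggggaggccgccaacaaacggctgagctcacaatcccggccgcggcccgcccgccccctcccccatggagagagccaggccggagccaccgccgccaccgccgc
The capitals mark, in Rfx2, TGACG, a part of the cAMP response element bound by CREM, and GTTGCC, the RFX letters also marked in Gtf2a1l. In Tcfl5 and Sox30 they mark CACGCG, the E-box-like letters searched for TCFL5. On both strands, GTTGCC was found in 2 of 8 regulator windows and 12.5% of all 32851 windows, CACGCG in 2 of 8 and 9.27%, TGACG in 1 of 8 and 20.8%, TATAAA in 1 of 8 and 13.6%, and ATGCAAA in 1 of 8 and 4.63%. The MYB letters AACNG were in 8 of 8 windows and in 80.3% of all, and the SOX letters ACAATG in 0 of 8 and 12.6%. A match is a description of the letters in these windows and not a binding site shown by these data. Taf7l had the lowest GC content of the 8 windows, 47.0%, and Rfx2 the highest, 75.7%, beside a median of 52.7% over all windows.

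For each regulator the tested gene with the most alike level was found by Euclidean distance between log2 CPM (with 0.1 CPM added) over the 4 libraries. The nearest was Thop1 for Mybl1 (distance 0.145), Rnf126 for Tbpl1 (0.175), Pnmal1 for Sox30 (0.2), Scml2 for Taf7l (0.23) and Nudt18 for Crem (0.255). It was Dnah7c for Rfx2 (0.298), Slco6c1 for Gtf2a1l (0.327), Nek2 for Tcfl5 (0.335), Meioc for Brdt (0.434) and Ccdc7b for Pou5f2 (0.72). The distance rests on 4 libraries in 2 groups, and nothing about function is read from it.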

How the data were processed

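Whole-testis RNA from 4 libraries, 2 Sympk cKO and 2 wild type, was sequenced from both ends after preparation with a TruSeq kit, per the labels' protocols. The submitters' processing notes name HISAT2 and GRCm38. How reads were counted, on which annotation and with what strand setting, was not given in the sources used here. In their deposited form, the authors' tables held read counts per gene, whole numbers without normalization, and FPKM values, fragments scaled to a gene length and the library total. Across 12705 genes checked, both columns held one length per gene in all libraries, within 0.000914%. Fold changes used counts only; FPKM served to compare levels between genes. A second FPKM was computed from counts over merged GENCODE M21 exons.

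Counts were filtered with filterByExpr, scaled by TMM and tested with edgeR 4.0.16 (R 4.3.3) by a two-sided quasi-likelihood test of genotype, Benjamini-Hochberg adjusted over 21822 genes at a threshold of 0.05. The SE is the log2 fold change divided by the square root of the F statistic. Levels are TMM-scaled CPM. With 2 libraries per group an exact permutation test cannot reach that threshold. With libraries scaled by their totals, replicates differed far beyond sampling noise (mean chi-square per gene 22.1 for Sympk cKO and 46.7 for wild type). That does not show that they came from separate animals. All libraries were kept.

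Alternatives were DESeq2 1.42.0, limma-voom (limma 3.58.1), RLE factors, library totals alone, scaling to Sertoli markers, no filter, a mean of at least 5 CPM, a replicate block and each library left out; scaling to early meiotic markers and a crossed block were chosen after seeing the data. Simulated counts were put through the same steps. Planted changes were found again, and false calls stayed within the threshold when dispersions were smooth. False calls went over it when dispersions varied between genes as much as estimated here. Simulated counts cannot settle which scale is right for data in which 63.4% of genes were called. Scaling to Sertoli markers moved the calls from 7477 lower and 6368 higher to 12608 lower and 543 higher. No false call rate for the present calls was therefore read from the simulations. The regulators, gene lists and motifs were chosen with earlier results of these data known. All 10 regulators are named. From other lists up to 3 called falls and 2 called rises with the largest change and a mean of at least 1 CPM were named, with each compared relative, the gene of most alike level and overlapping genes; clone and predicted symbols were left out of the search for alike genes. Ak6 was named after the values were seen. A further comparison is not reported here.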

Additional observations from a re-analysis of the deposited data

How the results depend on the processing

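The 9 calls among the regulators and the missing call of Taf7l held with DESeq2, limma-voom, RLE factors, library totals alone, no filter, a mean of at least 5 CPM, the replicate block and each library left out; scaled to Sertoli markers, 10 were called lower. Over all genes, 7477 were called lower and 6368 higher. Scaling to Sertoli markers gave 12608 lower and 543 higher, and a mean of at least 5 CPM, which tests fewer genes, 4620 lower. Scaling to early meiotic markers gave 1660 lower and 18717 higher genes, and 3 regulators lower and 2 higher; Mybl1 (1.31), Crem (0.087), Tbpl1 (0.71) and Taf7l (3.05) then turned above 0. On the Sertoli scale Creb1 (-0.65), Crtc1 (-0.14), Rfx3 (-0.83) and Taf1 (-0.59) turned below 0. Mybl2, which was not called, was at 0.17 with library totals alone. With each library left out in turn it ranged from -0.13 to 0.020, turning sign without Sympk cKO replicate 1 or wild-type replicate 1 (0.0011). The cause of these changes in sign, beyond the scale itself, was not tested. The rises of Crtc3 and Etv5 were no longer called on the Sertoli scale, and the falls of Gtf2a1 and Taf7 with library totals alone. Pou2f2 was also not called by DESeq2, with library totals alone or with a mean of at least 5 CPM. The groups share replicate numbers, but deviations of same-numbered libraries correlated at -0.106 over 2 pairs, so the numbers were not taken to pair the samples; the replicate block gave 6937 lower and 5632 higher genes and 9 regulators lower, and the crossed replicate block 7267, 6145 and 9. Pou5f2 was the only regulator with libraries under 3 counts, which are 0.0700 to 0.0821 TMM-scaled CPM in Sympk cKO.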
